A study of Homo sapiens with 16 samples.

Results

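The scramble arm of the experiment consists of 8 of the 16 RNA-seq libraries, chosen by their labels: 4 libraries labelled SCR (+dox) and 4 labelled SCR (-dox). They come from HCT116, an established human colon cancer line, stably carrying a doxycycline-inducible short hairpin RNA with a scramble (SCR) sequence in place of one directed at *NAA40*, the gene of an N-terminal acetyltransferase of histones. The (+dox) cells had 1 μg/ml doxycycline for 96 h and the (-dox) cells had none, so both groups share the line, the integrated hairpin construct and the culture medium, and they differ in the drug and in the induction of the scramble hairpin, which cannot be told apart here. The libraries of a group were independent RNA samples of 1 stable line, so the p-values measure the spread between such samples and not between lines. The remaining 8 libraries, 4 labelled NAA40-KD (+dox) and 4 labelled NAA40-KD (-dox), come from the line with the *NAA40* hairpin and are used only to set the scramble comparison beside them.

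Doxycycline is a tetracycline antibiotic that switches on hairpin expression through a tetracycline-responsive promoter. It also binds bacterial ribosomes and the related ribosomes of mitochondria, so it can slow the synthesis of the respiratory chain subunits encoded in mitochondrial DNA, and mitochondrial stress of this kind is known to raise targets of the transcription factor ATF4. Tetracyclines also bind divalent metal ions, and a short hairpin RNA passes through the microRNA machinery. The scramble comparison addresses what the drug and an untargeted hairpin do on their own, and the 8 libraries together give the baseline transcriptome of the line.

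Total counts per library ran from 11220219 to 13691836, with 22170 to 23170 genes detected. *NAA40* served as the check of the labels. Its level was 27.4 ± 1.45 CPM (counts scaled to an equal library total) in SCR (+dox) and 29.4 ± 3.63 CPM in SCR (-dox) (SD, n = 4 each). In the knockdown line it was 30.3 ± 1.59 CPM under the label NAA40-KD (+dox) and 11.8 ± 1.94 CPM under NAA40-KD (-dox) (SD, n = 4 each). The low level thus lies in the libraries labelled (-dox), against the meaning of the labels. All libraries are therefore called by their labels, and every direction given for the scramble line holds for the labels as they stand. If the scramble labels were exchanged, each sign would turn.

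No gene differed between SCR cells with and without doxycycline by the criterion used, which asked for more than 1 log2 unit of change in either direction together with an adjusted p under 0.05. Of 13882 genes tested, 0 were called (0% called), and 0 had an adjusted p under 0.05 by edgeR's quasi-likelihood test, where the smallest adjusted p was 1.00. DESeq2 and limma-voom also called 0 genes. An unadjusted p under 0.05 was found for 271 genes in edgeR (1.95% of those tested), for 255 in DESeq2 and for 287 in limma-voom. In edgeR 182 of the 271 were higher in the (+dox) libraries (1.31% of genes tested) and 89 were lower (0.641%). The low range of p held fewer genes than an even spread would give, as the plot of fold changes and p-values shows.

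**Figure D1:**
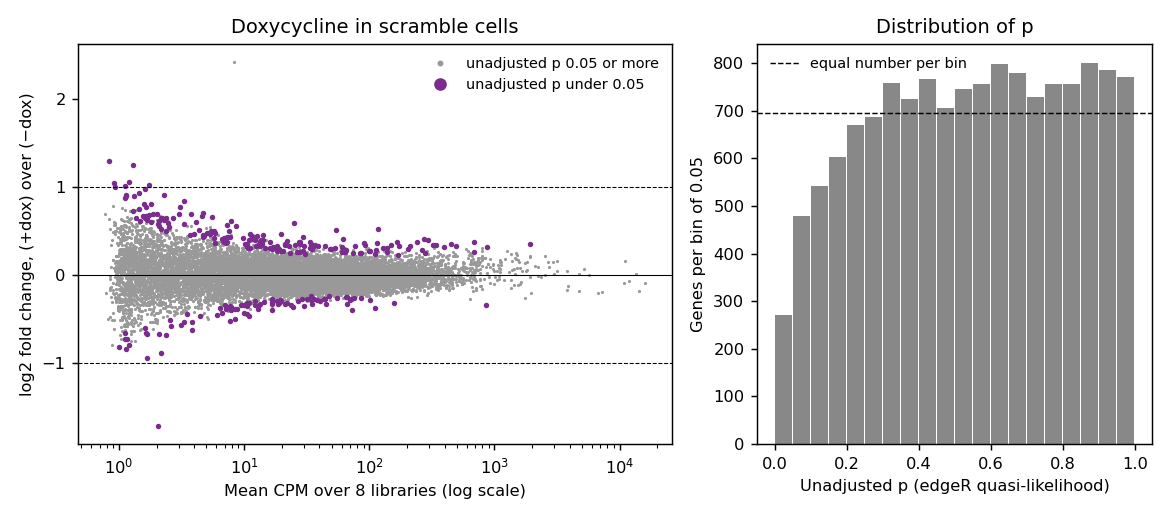
Left, log2 fold change of SCR (+dox) over SCR (−dox) against the mean CPM of the 8 libraries (log axis) for the 13882 genes tested, with dashed lines at 1 log2 unit in either direction; right, number of genes per bin of unadjusted p, with the dashed line at an even spread. The points narrow toward zero as the level rises, and the first bin holds 271 genes, below the dashed line.

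The differences were small as well as uncalled. The median absolute log2 fold change was 0.09, and 12509 genes (90.1%) lay below 0.25, 13676 (98.5%) below 0.5, and 9 above 1. The 95% confidence interval lay within 1 log2 unit of no change for 13413 genes (96.6%) and within 0.5 log2 units for 9935 (71.6%). This resolution depended on the level. Among the 1319 genes under 2 CPM the median standard error was 0.32 log2 units and 70.1% had an interval within 1 log2 unit, whereas among the 2132 genes at 100 CPM or more the median standard error was 0.12 and 99.9% had one. A 2-fold change in a gene below 2 CPM would thus often not have been detectable at this depth.

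In the knockdown line the same fit called 552 of 13844 genes (3.99%) between the libraries labelled (+dox) and (-dox). With all labels as they stand, the response itself differed between the lines. The interaction of line and doxycycline, fitted on all 16 libraries, called 646 of 14392 genes (4.49%). The difference between the lines was thus tested itself, and does not rest on one comparison passing a threshold that the other missed. If the labels of the knockdown line alone were exchanged, the interaction term would no longer be the difference between the responses.

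The 8 scramble libraries did not separate by treatment. The first principal component of log2 CPM held 30.6% of the variance, and doxycycline accounted for 1.13% of the spread along it. The corresponding values were 23.9% and 7.14% for the second component and 15.0% and 33.9% for the third. Over all genes tested, doxycycline held 11.6% of the total sum of squares. Any split of the 8 libraries into 4 and 4 takes some share here and along each component. The share expected without an effect was not computed. SCR (+dox) replicate 3 and SCR (-dox) replicate 4 stood apart from the others on the first component, at -25.4 and -22.9, while the other libraries lay between -6.71 and 15.9. SCR (+dox) replicate 4 and SCR (-dox) replicate 2 were the highest on the second, at 22.1 and 16.8.

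Pairs of libraries from different groups were about as alike as pairs from the same group. The SD of the log2 difference over genes had a median of 0.36 over the 12 pairs within a group and 0.36 over the 16 pairs between groups. The closest pair was SCR (+dox) replicate 2 with SCR (-dox) replicate 3, which carry different labels (SD 0.25). For every pair the chi-square per degree of freedom was above sampling noise, from 3.14 to 45.0, so no 2 libraries were counted as 1. The libraries also differed in base composition. The correlation across genes of a library's deviation with GC content ran from -0.50 in SCR (+dox) replicate 1 to 0.64 in SCR (+dox) replicate 4, with both signs in each group.

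Shares of the counts taken by groups of transcripts differed between libraries, and their groups were compared by permutation. The 13 mitochondrially encoded proteins took 7.45%, 9.45%, 7.22% and 7.08% of the counts in SCR (+dox) replicates 1 to 4, and 8.92%, 7.75%, 12.1% and 5.26% in SCR (-dox) replicates 1 to 4. Both the highest and the lowest share thus lie in the SCR (-dox) group, and the groups overlap (7.80 ± 1.11% against 8.52 ± 2.86%; SD, n = 4; exact two-sided permutation p = 0.686, adjusted 0.849 over 8 measures). Cytosolic ribosomal protein transcripts took 6.01 ± 0.80% in SCR (+dox) and 5.33 ± 0.61% in SCR (-dox) (SD, n = 4; exact permutation p = 0.171, adjusted 0.686). The total count, the number of genes detected, the shares of the 10 and 100 most counted genes, of long noncoding RNAs and of pseudogenes gave adjusted exact permutation p-values from 0.686 to 0.971, where 4 libraries against 4 can go no lower than 0.0286 before adjustment, so that 1 shifted measure of the 8 could not have passed.

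**Figure D2:**
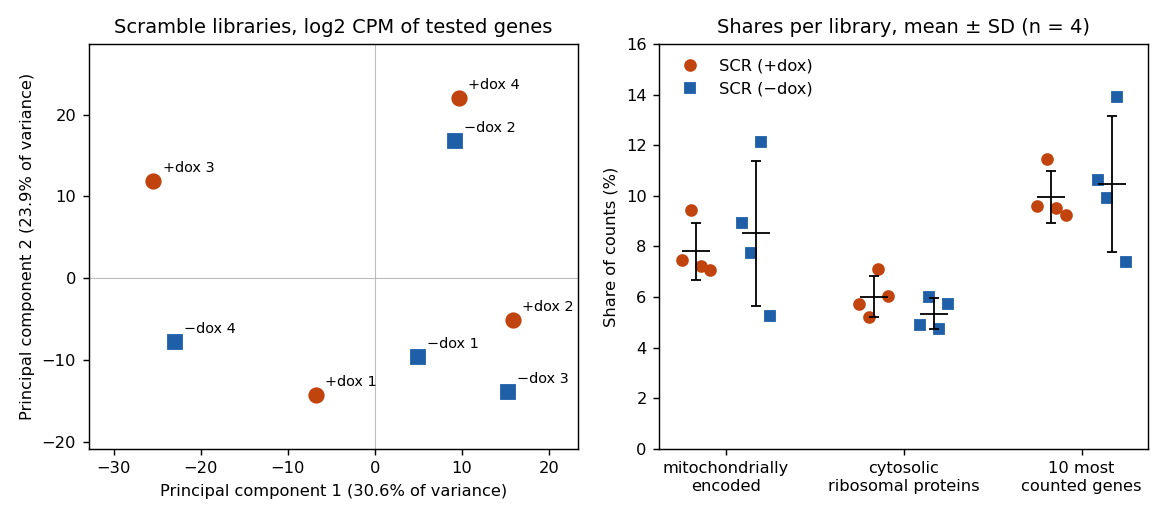
Left, the 8 scramble libraries on the first and second principal components of log2 CPM, circles for SCR (+dox) and squares for SCR (−dox), with replicate numbers; right, percent of counts in each library for 3 groups of transcripts, with mean ± SD (n = 4). Libraries of both labels intermingle in both, and SCR (−dox) replicates 3 and 4 hold the highest and lowest mitochondrial shares, 12.1% and 5.26%.

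Mitochondrial transcripts come first among the processes that doxycycline is known to touch. Of the 13 genes for proteins encoded in mitochondrial DNA, 0 were called. The median log2 fold change was -0.17, with 1 higher and 12 lower, beside a median of -0.0016 over all genes tested, of which 6880 were higher and 7002 lower. *MT-CO1*, a catalytic subunit of cytochrome c oxidase, was at 14549, 18607, 13286 and 14841 CPM in SCR (+dox) and at 15868, 15548, 23530 and 10304 CPM in SCR (-dox). The SCR (-dox) libraries span the SCR (+dox) ones, and the log2 fold change was -0.09 ± 0.19 (SE). *MT-ATP8*, a small subunit of ATP synthase, was the 1 member with an unadjusted p under 0.05, downward (beside 0.641% of genes tested). It had 73.5, 62.0, 61.8 and 53.7 CPM against 89.2, 67.1, 116 and 58.0 CPM, overlapping groups with a log2 fold change of -0.40 ± 0.17 (SE) and an unadjusted edgeR p of 0.0300 (adjusted 1.00). The direction of the list rested on SCR (-dox) replicate 3: without it the median was 0.08 and 12 of the 13 were higher.

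Nuclear genes that serve mitochondria showed no called difference either. The 77 tested proteins of the mitochondrial ribosome, where doxycycline binds, had a median log2 fold change of 0.06, with 59 higher, 18 lower and 1 at an unadjusted p under 0.05 (*MRPL54*, 0.40, beside 1.31% of genes tested upward). Its direction rested on SCR (+dox) replicate 3, without which the median was -0.04 and 28 of the 77 were higher, and it ran up to 0.14 with 67 higher without SCR (+dox) replicate 2. The 18 mitochondrial chaperones and proteases had a median of 0.03 and 0 at an unadjusted p under 0.05. Among them *HSPD1*, the mitochondrial chaperonin HSP60, was at 1198, 927, 1222 and 962 CPM in SCR (+dox) and at 1169, 909, 980 and 1374 CPM in SCR (-dox), a log2 fold change of -0.04 ± 0.14 (SE). *HSPA9*, the mitochondrial HSP70, was at 819, 757, 748 and 762 CPM against 654, 754, 719 and 728 CPM, at 0.11 ± 0.10 (SE). Both sets of values overlap between the groups.

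The 74 nuclear-encoded respiratory chain subunits had a median log2 fold change of 0.15, with 71 higher and 3 lower and 0 called. An unadjusted p under 0.05 was found for 1, upward (beside 1.31% of genes tested). *ATP5F1B*, the catalytic beta subunit of ATP synthase, was at 1155, 1007, 1207 and 1144 CPM in SCR (+dox) and at 1012, 1084, 986 and 1209 CPM in SCR (-dox), a log2 fold change of 0.07 ± 0.11 (SE). *COX6A1*, a small subunit of cytochrome c oxidase, was at 39.5, 28.5, 52.9 and 33.2 CPM against 29.5, 29.9, 23.5 and 37.1 CPM, at 0.36 ± 0.17 (SE; unadjusted edgeR p of 0.0492, adjusted 1.00). In each gene the groups overlap, and in *COX6A1* SCR (+dox) replicate 3 is the highest library. Without that library the median of the list was 0.03, with 53 of 74 higher. Without SCR (+dox) replicate 2 it was 0.23 with 12 members at an unadjusted p under 0.05, and without SCR (-dox) replicate 4 it was 0.21 with 10. Over all genes tested the numbers at such a p were 423 and 313, beside 271 with all 8 libraries. Transcripts of this list are short, with a median length of 1.43 kb beside 3.56 kb over all genes tested, and across 13859 genes the log2 fold change correlated with log2 transcript length at r = -0.29. SCR (+dox) replicate 3 showed the most negative relation of its deviations with length of the 8 libraries (r = -0.40). The part of transcript length in these values was not tested.

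Targets of ATF4, the transcription factor of the integrated stress response that drives amino acid synthesis and import, had the highest median of the process lists. Of 38 tested members 37 were higher and 1 lower, the median log2 fold change was 0.22, and 7 had an unadjusted p under 0.05, all upward (beside 1.31% of genes tested). None was called. The summed level of the list was 11220, 10530, 11282 and 11419 CPM in SCR (+dox) and 8376, 11039, 9899 and 9533 CPM in SCR (-dox). SCR (-dox) replicate 1 was the lowest library, and SCR (-dox) replicate 2 lay inside the range of the SCR (+dox) libraries. The number of members whose groups did not overlap was 0, beside 207 of the 13882 genes tested (1.49%). Without SCR (-dox) replicate 1 the median was 0.13 and 2 members had an unadjusted p under 0.05. Without SCR (-dox) replicate 2 the median was 0.31 and 21 had one. Over all genes tested the number was 121 without SCR (-dox) replicate 1 and 560 without SCR (-dox) replicate 2, beside 271 with all 8 libraries.

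SCR (-dox) replicate 1 was also the lowest of the 8 libraries for *PCK2*, *SLC7A11* and *TRIB3*. *PCK2*, the mitochondrial phosphoenolpyruvate carboxykinase, was at 127, 121, 145 and 155 CPM in SCR (+dox) and at 66.9, 140, 98.5 and 77.1 CPM in SCR (-dox), with a log2 fold change of 0.52 ± 0.17 (SE) and an unadjusted edgeR p of 0.00675 (adjusted 1.00). Its SCR (-dox) replicate 1 is the lowest and replicate 2 lies among the SCR (+dox) libraries. *SLC7A11*, the cystine and glutamate exchanger, was at 225, 180, 169 and 180 CPM against 115, 152, 172 and 140 CPM, at 0.38 ± 0.13 (SE; unadjusted edgeR p of 0.00850, adjusted 1.00). *TRIB3*, a pseudokinase induced by stress, was at 232, 239, 297 and 318 CPM against 146, 291, 213 and 185 CPM, at 0.38 ± 0.17 (SE). *PSAT1*, an enzyme of serine synthesis, *DDIT3*, the stress factor CHOP, *SLC3A2*, the heavy chain of amino acid exchangers, and *PPP1R15A*, a phosphatase subunit that acts on eIF2α, were the other members at an unadjusted p under 0.05, with log2 fold changes of 0.34, 0.44, 0.36 and 0.35. *ATF4* itself was at 0.22 ± 0.12 (SE), from 680, 582, 834 and 726 CPM in SCR (+dox) and 526, 666, 586 and 648 CPM in SCR (-dox), and these groups overlap.

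ATF4 pairs with C/EBP factors on elements of the form TGATGNAA, where N is any base. Promoter windows from RefSeq (GRCh38.p14), which run from 250 bases before to 50 after the start of a gene, were available for 33 of the 38 tested members, and the element was found on either strand in 8 of them (24.2%), beside 3.67% of the 27305 promoters in the table. The stretches of 3 members, the aminoacyl-tRNA synthetases *AARS1*, *CARS1* and *NARS1*, with *ASNS*, the asparagine synthetase, and *CHAC1*, a glutathione-degrading enzyme, are shown because the list had the highest median, with the match in capitals. In *AARS1*, *CARS1* and *CHAC1* the match is on the opposite strand. The segments are chr7:97872459-97872486 on the minus strand for *ASNS*, chr15:40953252-40953279 on the plus strand for *CHAC1*, chr16:70289676-70289703 on the minus strand for *AARS1*, chr11:3057408-3057435 on the minus strand for *CARS1* and chr18:57621805-57621832 on the minus strand for *NARS1*.
ASNS: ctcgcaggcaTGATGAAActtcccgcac
CHAC1: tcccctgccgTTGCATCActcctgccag
AARS1: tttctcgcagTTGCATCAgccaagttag
CARS1: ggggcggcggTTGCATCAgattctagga
NARS1: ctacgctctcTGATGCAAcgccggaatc

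None of these 5 genes passed an unadjusted p of 0.05. The element was also found in *ATF3*, *MARS1* and *SLC3A2*, whose stretches are not shown. Of these, *SLC3A2* had an unadjusted edgeR p of 0.0142 (log2 fold change 0.36 ± 0.13, SE), whereas *ATF3* and *MARS1* did not pass 0.05. *AARS1* was at 659, 703, 600 and 719 CPM in SCR (+dox) and at 444, 742, 572 and 449 CPM in SCR (-dox), a log2 fold change of 0.28 ± 0.15 (SE), with SCR (-dox) replicate 2 the highest of all 8 libraries. *CARS1*, *ASNS*, *CHAC1* and *NARS1* had log2 fold changes of 0.23, 0.21, 0.26 and 0.13. A match to the letters is a description of the window and says nothing about binding in these cells.

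**Figure D3:**
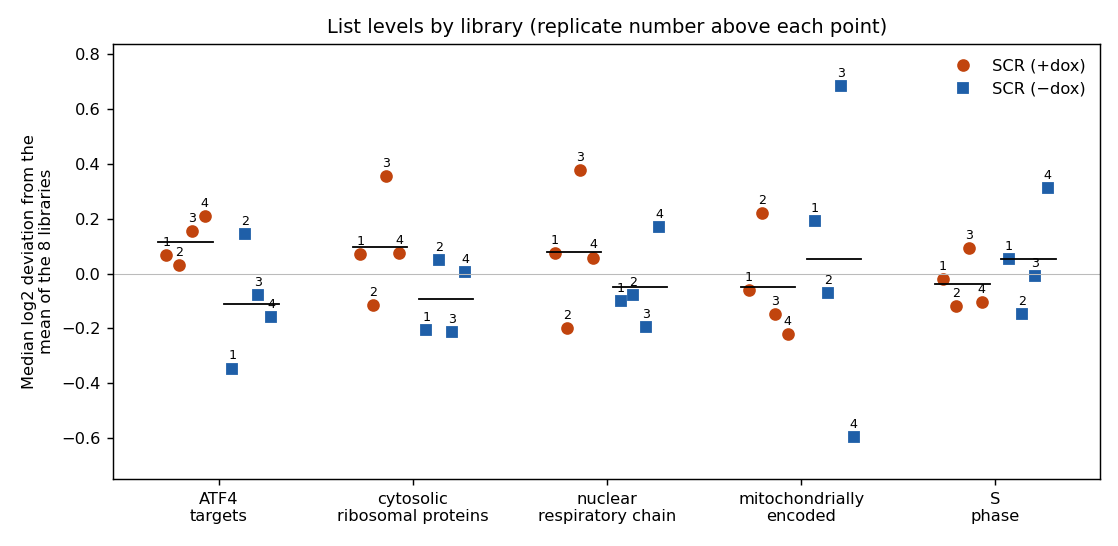
Median log2 deviation of the tested members of 5 lists from the mean of the 8 libraries, by library, circles for SCR (+dox) and squares for SCR (−dox), replicate numbers above the points and lines at group means. Groups overlap in every list; SCR (−dox) replicate 1 is lowest for the ATF4 targets, SCR (+dox) replicate 3 highest for ribosomal proteins and the respiratory chain, and SCR (−dox) replicates 3 and 4 at the ends for mitochondrial transcripts.

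Cytosolic ribosomal protein genes were higher in 77 of 79 cases, with a median log2 fold change of 0.18 and 0 called. An unadjusted p under 0.05 was found for 6, all upward (beside 1.31% of genes tested). The summed level was 58217, 52455, 71360 and 59385 CPM in SCR (+dox) and 48794, 59436, 48927 and 56156 CPM in SCR (-dox), so that the groups overlap and SCR (+dox) replicate 3 is the highest. *RPL39*, a small protein of the large subunit, was at 34.0, 25.7, 33.5 and 31.9 CPM against 24.8, 21.2, 24.8 and 25.1 CPM, non-overlapping, with a log2 fold change of 0.38 ± 0.12 (SE; unadjusted edgeR p of 0.00598, adjusted 1.00). *RPL26*, of the same subunit, was at 63.6, 62.2, 79.2 and 61.9 CPM against 55.1, 54.7, 54.8 and 48.5 CPM, at 0.33 ± 0.11 (SE). These are the 2 members of 79 whose groups did not overlap, beside 1.49% of all genes tested. Without SCR (+dox) replicate 3 the median of the list was 0.09, and 2 members had an unadjusted p under 0.05. Without SCR (+dox) replicate 2 the numbers were 0.25 and 24. Over all genes tested, 195 had such a p without SCR (+dox) replicate 3 and 423 without SCR (+dox) replicate 2, beside 271 with all 8 libraries. The median transcript length of the list was 1.86 kb, and as for the respiratory chain the part of length was not tested.

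The type I interferon list, which would show a response to double-stranded RNA, had 14 of 27 tested members higher, 13 lower and a median log2 fold change of 0.00012. *EIF2AK2*, the RNA-activated kinase PKR, was at 121, 112, 84.2 and 82.5 CPM in SCR (+dox) and at 113, 88.6, 111 and 116 CPM in SCR (-dox), a log2 fold change of -0.10 ± 0.13 (SE). The groups overlap.

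Within the interferon list 4 members had an unadjusted p under 0.05, all upward (beside 1.31% of genes tested): *OASL*, *IFI35*, *ISG20* and *ISG15*. The number of such members was 1 without SCR (-dox) replicate 1 or with all 16 libraries fitted. It was 2 without SCR (+dox) replicate 3 or 4 or SCR (-dox) replicate 3. Over all genes tested the numbers in these fits were 121, 192, 195, 428 and 282, beside 271 in the main fit. *OASL*, a protein related to the oligoadenylate synthetases, was at 9.23, 10.9, 10.36 and 10.5 CPM in SCR (+dox) and at 7.43, 7.95, 6.69 and 5.76 CPM in SCR (-dox). Its groups do not overlap, and its log2 fold change was 0.56 ± 0.15 (SE; unadjusted edgeR p of 0.00145, adjusted 1.00). *ISG15*, a ubiquitin-like protein, was at 60.6, 67.0, 89.2 and 69.9 CPM against 52.9, 70.9, 50.6 and 60.0 CPM, which overlap (0.29 ± 0.13, SE).

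Of the 13 tested genes of the RNA interference machinery, which processes the hairpin, 2 were higher and 11 lower, with a median log2 fold change of -0.13 and 0 at an unadjusted p under 0.05. *AGO2*, the Argonaute that cleaves targets, was at 302, 314, 197 and 286 CPM in SCR (+dox) and at 329, 320, 314 and 305 CPM in SCR (-dox), at -0.21 ± 0.13 (SE). *XPO5*, which exports hairpins from the nucleus, was at 131, 128, 121 and 143 CPM against 140, 141, 138 and 144 CPM, at -0.11 ± 0.10 (SE). SCR (+dox) replicate 3 was the lowest library in both, and the groups overlap. Transcripts of this list were long, with a median of 8.44 kb.

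Among 7 tested metallothioneins and zinc transporters 4 were higher and 3 lower, with a median log2 fold change of 0.07, which was -0.02 without SCR (+dox) replicate 3 and -0.01 without SCR (-dox) replicate 2. The 3 lower ones, *MT1F*, *MTF1*, the metal-responsive transcription factor, and *SLC39A10*, a zinc importer, had log2 fold changes of -0.10, -0.17 and -0.11. *MT1E*, a metal-binding metallothionein, was at 132, 97.9, 162 and 129 CPM in SCR (+dox) and at 95.3, 118, 86.6 and 102 CPM in SCR (-dox), at 0.37 ± 0.14 (SE; unadjusted edgeR p of 0.0150, adjusted 1.00). *MT1X* had 0.50 ± 0.20 (SE), from 4.28 to 8.37 CPM against 3.92 to 4.92 CPM. *MT2A*, the most counted of the family here, had 0.31 ± 0.15 (SE). The groups overlap in *MT1E*, *MT1X* and *MT2A*. *MT1E* and *MT1X* were the 2 members with an unadjusted p under 0.05, both upward (beside 1.31% of genes tested). There were 0 without SCR (+dox) replicate 3 or SCR (-dox) replicate 3, where 195 and 282 of all genes tested had one.

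The remaining process lists had 0 called genes each. Glycolysis had a median log2 fold change of 0.08 (20 of 23 higher) and 0 members at an unadjusted p under 0.05, and *GAPDH* was at 0.08 ± 0.11 (SE). The hypoxia response had a median of 0.09 (17 of 20 higher) and 1 such member (beside 1.31% of genes tested upward), *ANGPTL4*, a secreted inhibitor of lipoprotein lipase. *ANGPTL4* was at 18.1, 22.7, 25.6 and 24.4 CPM in SCR (+dox) and at 20.7, 17.5, 13.4 and 13.99 CPM in SCR (-dox), overlapping, with a log2 fold change of 0.47 ± 0.15 (SE). The p53 targets had a median of 0.02 (16 of 28 higher), which was -0.02 without SCR (+dox) replicate 3, and *CDKN1A*, the cell cycle inhibitor p21, was at 0.04 ± 0.11 (SE).

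In 4 further lists more members were lower than higher, with 0 called. S phase genes had a median log2 fold change of -0.10 (38 of 45 lower), G2/M genes -0.05 (40 of 54 lower), cholesterol synthesis genes -0.05 (15 of 24 lower) and mismatch repair genes -0.07 (7 of 8 lower). Without SCR (-dox) replicate 4 the S phase median was 0.0026 and the cholesterol synthesis median 0.03, with 15 of the 24 cholesterol synthesis genes higher. Without SCR (-dox) replicate 2 the S phase median was -0.15 and 6 of its members had an unadjusted p under 0.05, all downward. Over all genes tested 560 had one in that fit, in either direction, beside 271 with all 8 libraries. *MKI67*, the proliferation antigen Ki-67, was at 584, 688, 402 and 638 CPM in SCR (+dox) and at 796, 712, 689 and 586 CPM in SCR (-dox) (log2 fold change -0.27 ± 0.15, SE), with SCR (+dox) replicate 3 the lowest library.

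**Figure D4:**
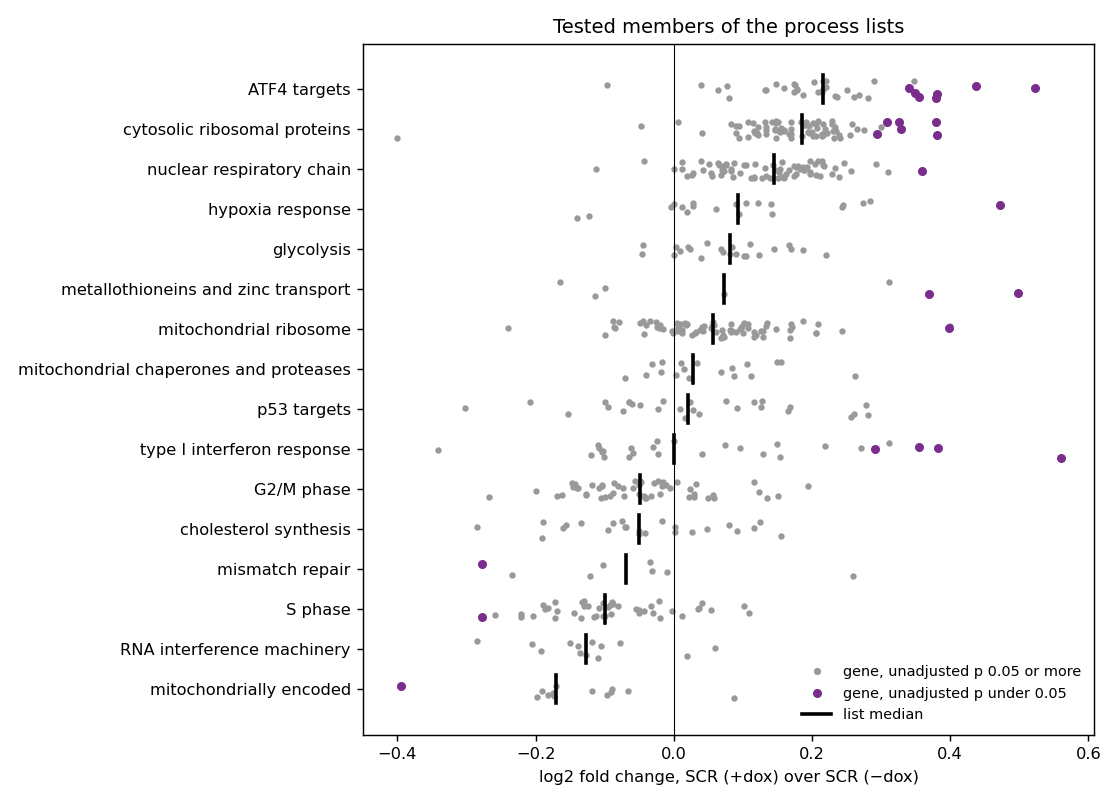
Log2 fold change of SCR (+dox) over SCR (−dox) for each tested member of the 16 process lists, ordered by median (black line), with members at an unadjusted p under 0.05 in purple. Medians run from -0.17 for the mitochondrially encoded genes to 0.22 for the ATF4 targets, and no member reaches a change of 1 log2 unit.

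The changes of the genes with the lowest p-values were of modest size. Among genes of at least 5 CPM, the 5 rises with the lowest p, which include *ARTN*, *OASL*, *KRT15* and *S100A2*, had log2 fold changes from 0.41 to 0.59. *ARTN*, a neurotrophic ligand of the GDNF family, was at 25.5, 26.8, 35.5 and 33.1 CPM in SCR (+dox) and at 16.7, 24.0, 20.4 and 19.1 CPM in SCR (-dox), without overlap (0.59 ± 0.14, SE; unadjusted edgeR p of 5.06e-04, adjusted 1.00). *KRT15*, a keratin of basal epithelial cells, was at 59.9, 74.0, 66.5 and 81.0 CPM against 47.4, 59.8, 61.6 and 42.4 CPM, which overlap (0.41 ± 0.13, SE).

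The 5 falls of lowest p were *RHBDL3*, *DDIAS*, the unnamed locus ENSG00000280202, *HSPA8* and *PPARGC1B*, with log2 fold changes from -0.52 to -0.34. *HSPA8*, the constitutive cytosolic HSP70 chaperone, was the most counted of them. It was at 804, 756, 782 and 677 CPM in SCR (+dox) and at 1084, 830, 829 and 1075 CPM in SCR (-dox), without overlap (-0.34 ± 0.12, SE; unadjusted edgeR p of 0.0121, adjusted 1.00). *PPARGC1B*, a coactivator of mitochondrial genes, was at 28.6, 27.1, 21.4 and 29.3 CPM against 39.3, 32.2, 32.2 and 32.2 CPM, also without overlap (-0.35 ± 0.13, SE). *DDIAS*, a suppressor of apoptosis after DNA damage, was at 16.9, 14.7, 14.03 and 11.4 CPM against 20.2, 17.8, 17.3 and 19.98 CPM, without overlap (-0.40 ± 0.14, SE).

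Changes above 1 log2 unit were found mainly at weakly counted loci. Of the 9 such genes, 8 had an unadjusted p under 0.05: *LINC01001*, *RPL17P6*, *C6orf52*, *FAM13A-AS1*, *IL9RP3*, *DLC1* and the loci ENSG00000267737 and ENSG00000249942. *LINC01001*, a long intergenic RNA at chr11:127204-139612, was the 1 that was lower. It had 8, 16, 6 and 20 counts in SCR (+dox) and 40, 34, 58 and 21 counts in SCR (-dox), or 0.64, 1.25, 0.44 and 1.45 CPM against 3.42, 3.00, 4.46 and 1.61 CPM. These values do not overlap, and the log2 fold change was -1.71 ± 0.36 (SE; unadjusted edgeR p of 1.38e-04, adjusted 1.00). It overlaps another annotated gene on the opposite strand, and the counting's use of strand is not given in the sources used here, so its counts are uncertain. When no filter on low counts was applied, *LINC01001* was the 1 gene called (adjusted p = 3.27e-04 in edgeR).

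The other 7 were higher in SCR (+dox), with log2 fold changes from 1.00 to 1.30 and levels of 0.077 to 2.79 CPM per library. *DLC1*, a GTPase-activating protein, was at 1.51, 0.93, 1.18 and 1.09 CPM against 1.02, 0.44, 0.077 and 0.38 CPM, overlapping. *RPL17P6* is a processed pseudogene near-identical to a ribosomal protein gene, so reads can be shared. The gene above 1 log2 unit without such a p, *MTND2P28*, was chosen for mention after its values were seen. It is a nuclear copy of a mitochondrial gene at chr1:629640-630683, with 49.2 CPM in SCR (+dox) replicate 1 and 2.00 to 3.42 CPM in the other 7 libraries, and its log2 fold change of 2.42 ± 1.34 (SE) rests on that library.

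Over the 8 libraries, HCT116 expressed 13808 genes at a mean of at least 1 CPM, 9780 at 10, 2132 at 100, 74 at 1000 and 10 at 5000. The counts were concentrated: 108 genes held 25% of them, 859 held 50% and 5930 held 90%. The median gene tested was at 26.9 CPM, or 5.31 CPM per kb of merged exons, the scale on which levels of different genes are compared here.

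Mitochondrial transcripts led on the per-length scale. Of the 20 highest genes 12 were among the 13 mitochondrially encoded proteins, 2 were the mitochondrial ribosomal RNAs and 1, *MTATP6P1*, was a nuclear copy of *MT-ATP6* on chromosome 1 with which reads can be shared. *MT-CO2*, a subunit of cytochrome c oxidase, was first, at 17312 ± 4407 CPM per kb (SD, n = 8), followed by *MT-CO3* at 13908 ± 3507 and *MT-ATP6* at 10528 ± 3345. Each of these exceeded the next by less than the larger of their SDs over libraries. Using the longest transcript in place of merged exons, 19 of the 20 highest genes were shared.

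The nuclear genes of the 20 were *ACTG1*, *EEF1A1*, *TMSB10*, *HMGA1* and *RPS2*. *ACTG1*, cytoplasmic gamma actin, was at 1908 ± 155 CPM per kb and *EEF1A1*, the translation elongation factor, at 1863 ± 199 (SD, n = 8), within each other's spread. Before division by merged exons of 2.993 and 5.948 kb they were at 5711.85 and 11082.5 CPM. Their nearness thus depends on the length used, which the SDs do not cover. *TMSB10*, an actin-sequestering thymosin, was at 1751 ± 387 CPM per kb. *HMGA1*, an architectural chromatin protein abundant in embryonic and tumour cells, was at 1352 ± 146 CPM per kb and *RPS2*, of the small ribosomal subunit, at 1219 ± 154. The log2 fold changes with doxycycline of *ACTG1*, *EEF1A1* and *HMGA1* were 0.0042, 0.16 and 0.05.

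Ribosomal protein genes spanned 1.17 to 1219 CPM per kb with a median of 178, and 30 of the 79 were among the 100 highest genes, with 13 mitochondrially encoded, 5 of glycolysis, 3 ATF4 targets and 2 epithelial genes. The transcripts of this family and of *EEF1A1* classically begin with a C and a run of pyrimidines, the TOP motif, through which nutrient signals control their translation. The windows below run from 20 bases before to 10 after the RefSeq start (GRCh38.p14) and are shown to set genes of this family and other highly expressed genes, with and without such a start, side by side, with an initial C and its unbroken run of C and T in capitals. They lie at chr6:73521023-73521052 on the minus strand for *EEF1A1*, chrX:119791621-119791650 on the minus strand for *RPL39*, chr12:56116613-56116642 on the plus strand for *RPL41*, chr6:34236853-34236882 on the plus strand for *HMGA1*, chr17:81512790-81512819 on the minus strand for *ACTG1* and chr15:66504846-66504875 on the minus strand for *RPL4*.
EEF1A1: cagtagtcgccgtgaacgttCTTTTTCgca
RPL39: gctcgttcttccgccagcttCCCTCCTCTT
RPL41: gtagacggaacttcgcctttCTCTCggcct
HMGA1: ccccctgcccctgggtcgctCTTTTTaagc
ACTG1: cgggggaggccgcggtcggtCTCagtcgcc
RPL4: acatatacagcgggagtggtaagcacttcc

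A C followed by at least 4 bases that are each C or T opened the transcript in *EEF1A1*, *RPL39*, *RPL41* and *HMGA1*, and in 4.04% of the 27305 promoters in the table. *RPL4* has none at the listed start, where its annotated first base is not a C. Windows were found for 63 of the 79 ribosomal protein genes, under 80%, so a share over the family is void. Among these ribosomal protein genes, *RPL4*, at 479.5 CPM per kb, was above *RPL41* at 50.9 and *RPL39* at 12.9. They have 6, 3 and 15 annotated pseudogenes, with which reads can be shared, so these levels are uncertain. A relation of level to the start was not tested.

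The lowest ribosomal protein genes were *RPS10* at 1.17 ± 0.31, *RPL17* at 2.53 ± 0.45 and *RPL36A* at 3.40 ± 0.62 CPM per kb (SD, n = 8). Each overlaps a readthrough gene on the same strand (*RPS10-NUDT3*, *RPL17-C18orf32* and *RPL36A-HNRNPH2*), so their counts are uncertain. Across the 79 genes the Spearman correlation of the level in CPM, not divided by length, was 0.13 with transcript length. With the number of annotated pseudogenes it was -0.05, and both are given as a description.

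All 22 epithelial markers were above 1 CPM. In bulk RNA, fewer cells expressing a gene and less RNA per cell cannot be told apart. On the per-length scale *KRT19* (631 CPM per kb), *KRT8* (279) and *KRT18* (215), the keratins of simple epithelia, led, followed by *EPCAM* (129), the epithelial adhesion molecule, and *JUP* (91.5), the junctional plakoglobin. *CDH1*, E-cadherin, was at 140 CPM, between 120 and 152 CPM over the 8 libraries. With doxycycline the 22 had a median log2 fold change of 0.13, with 18 higher, 4 lower, 3 at an unadjusted p under 0.05 (*KRT18*, *CLDN7*, *KRT7*) and 0 called. These 3 were all upward, beside 1.31% of genes tested. *CLDN7*, a tight junction claudin, was at 181, 184, 208 and 198 CPM in SCR (+dox) and at 127, 206, 146 and 133 CPM in SCR (-dox), overlapping (0.33 ± 0.14, SE).

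Markers of intestinal differentiation were mostly near zero. Of 33 measured, 7 were above 1 CPM, among them *CA2*, a carbonic anhydrase (41.1 CPM), *CDX2*, a transcription factor of the intestine (20.3), *HNF4G* (10.2), *HNF4A* (7.80), *KRT20* (6.34) and *GATA6* (5.96). The brush border and goblet cell genes *VIL1* (0.097 CPM, 0 to 3 counts per library), *CDH17* (0.44), *MUC2* (0.38) and *LGALS4* (0.17) were below 1 CPM. *CDX1*, a close relative of *CDX2*, had at most 1 count in a library. With counts this low a difference with doxycycline was not detectable.

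Among 18 crypt and Wnt pathway genes, 14 were above 1 CPM, led in CPM by *CD44* (608), *MYC* (323), *TCF7L2* (232) and *SOX9* (83.5). *LGR5*, the receptor that marks crypt stem cells, had at most 1 count per library (0.040 CPM), and *ASCL2* and *LEF1* had 0 in all 8 libraries. *AXIN2*, a feedback target of Wnt signalling, was at 2.05 ± 0.60 CPM (SD, n = 8). With doxycycline 4 of the 14 were higher and 10 lower (median log2 fold change -0.12), and 0 had an unadjusted p under 0.05.

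**Figure D5:**
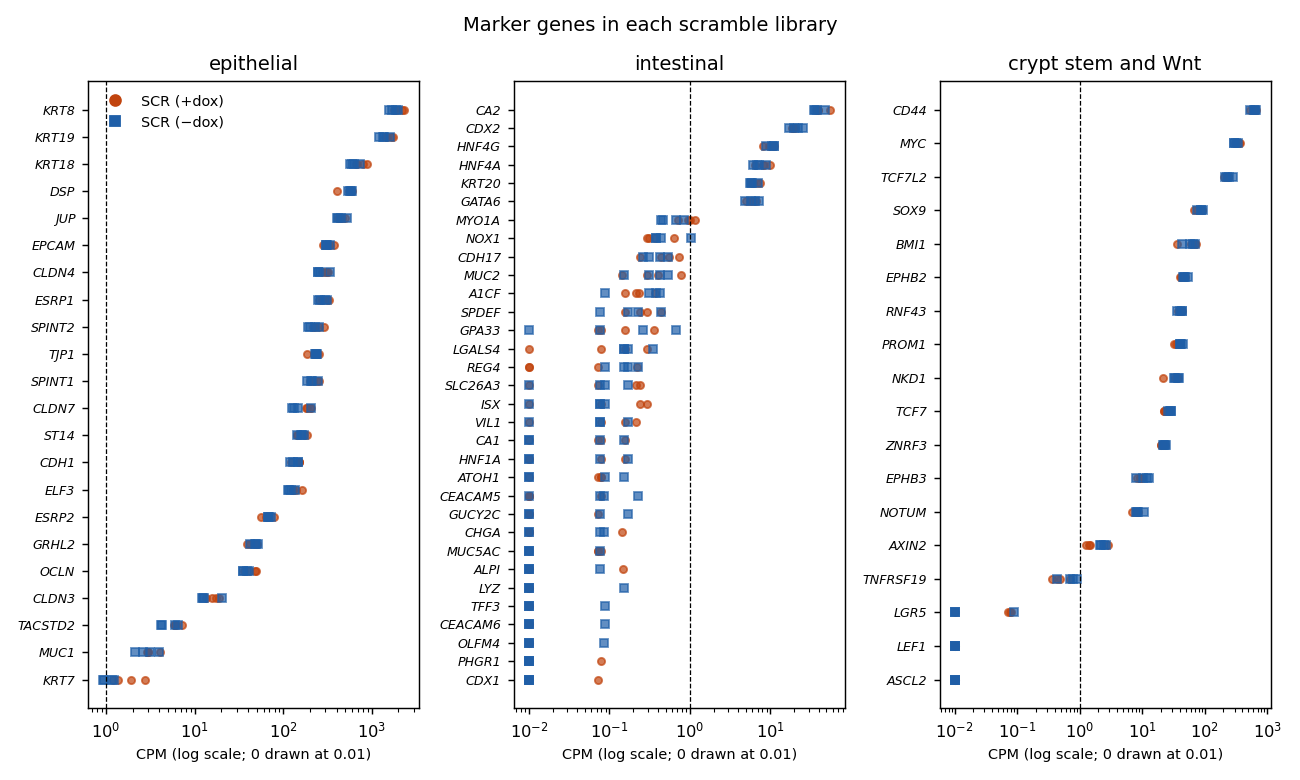
CPM (log axis, values of 0 drawn at 0.01) of epithelial, intestinal, and crypt and Wnt markers in each of the 8 scramble libraries, circles for SCR (+dox) and squares for SCR (−dox), with a dashed line at 1 CPM and 1 intestinal gene above it not drawn. Nearly all epithelial values lie above the line, 26 of 33 intestinal genes have a mean below it, and the circles and squares overlap.

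Genes of other cell types were few. Of 16 mesenchymal markers 6 were above 1 CPM, led by *COL1A1* (79.7 CPM), *FN1* (41.2) and *SNAI1* (32.9), whereas *VIM*, vimentin, was at 0.53 CPM and *COL1A2* at 0 in all 8 libraries. Of 12 immune markers 2 were above 1 CPM (*CSF1R* at 1.49 and *ITGAM* at 1.08), and *PTPRC*, the pan-leukocyte antigen CD45, was at 0.051 CPM. Of 6 endothelial, 5 liver and 6 neuronal markers 2, 1 and 3 were above 1 CPM, the highest being *GAD1*, which makes the transmitter GABA, at 11.1 CPM. The summed level of the 12 immune markers was 2.94 to 3.99 CPM in SCR (+dox) and 2.84 to 5.04 CPM in SCR (-dox), so the ranges overlap. The summed mesenchymal level was 143 to 181 CPM against 138 to 183 CPM.

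HCT116 is a line with defective mismatch repair. All 8 genes of the list were counted, among them, as means in CPM, *MSH6* at 95.7, *PMS1* at 57.3, *EXO1* at 31.6, *PMS2* at 31.6, *MLH3* at 17.4 and *MSH3* at 3.45. On the per-length scale *PMS1* was the highest at 10.5 CPM per kb and *MSH3* the lowest at 0.73, beside the median of 5.31 over genes tested.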

How the data were processed

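RNA-seq counts of 8 scramble libraries of HCT116 cells, of 16 in the series, were analysed. The deposited values are raw counts: per the methods and the submitters' processing notes, the authors aligned reads with STAR and counted them per gene with featureCounts, without normalization. The notes name hg38 together with a mouse build, while all 33937 identifiers are human. The strand setting is not given in the sources used here, so counts of overlapping and antisense genes are uncertain. Symbols, coordinates, lengths and GC content came from GENCODE release 29 (GRCh38), which held 33811 of the identifiers. A few listed genes without a row were not analysed here. Some further genes are not reported here.

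From the counts, edgeR 4.0.16 in R 4.3.3 gave TMM-normalized CPM and robust quasi-likelihood F tests (two-sided) with Benjamini-Hochberg adjustment, over genes with CPM above 1 in at least 4 libraries, fitted on the 8 scramble libraries. The knockdown line was fitted alone and the interaction on all 16. Standard errors are the absolute log2 fold change over the square root of F. Calls needed more than 1 log2 unit of change in either direction and an adjusted p under 0.05. Levels per kb divide CPM by merged exon length. Shares were compared by exact two-sided permutation over 70 arrangements. The scripts were tested on simulated counts. Alternatives were DESeq2 1.42.0, limma 3.58.1 (voom), other scalings and filters, a GC offset, a replicate block and each library left out. Depth, 11220219 to 13691836 counts per library, limits precision for genes of few counts, and intervals for these cover the fitted spread.

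Named genes were those past 1 log2 unit with an unadjusted p under 0.05; the 5 rises and 5 falls of lowest p at 5 CPM or more; the 20 highest per kb; from each process list the 3 highest and 2 of lowest p; all marker genes; the 10 most variable within groups at 10 CPM or more; and *NAA40*, *ACTB* and the mismatch repair genes, of which the text gives those each comparison turns on. Other list members at an unadjusted p under 0.05 were added after their values were seen. The gene lists were written by hand from general knowledge, and the libraries and lists were chosen with earlier results of these data known.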

Additional observations from a re-analysis of the deposited data

Results flagged for a closer look

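In groups of 4 libraries, a value was singled out when its gap to the nearest library exceeded 0.829 of the group's range, the 95% critical value of Dixon's test. Chance gives this in about 1 group in 20, and it occurred in 4 of 120 groups examined. SCR (+dox) replicate 2 had the highest mitochondrial share of its group, 9.45% beside 7.08 to 7.45% in the others, and the highest share of the 10 most counted genes, 11.5% beside 9.24 to 9.59%. The same library had the lowest level of *S100A2*, a calcium-binding protein of basal epithelial cells, at 5.99 CPM beside 9.40 to 9.73 CPM. *PPARGC1B* was highest in SCR (-dox) replicate 1, at 39.3 CPM beside 32.2 CPM in each of the other libraries of that group.

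The response to doxycycline differed between the scramble and the knockdown line in 646 genes by the interaction test, in which the libraries of the knockdown line are used as labelled.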

How the results depend on the processing

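No gene was called in the scramble comparison with DESeq2, limma-voom, other scalings, the stricter filter, either GC offset, all 16 libraries, the replicate block, either other adjusted p threshold or any library left out. Without the filter 1 gene was called and had an adjusted p under 0.05. The number at an unadjusted p under 0.05, 271 as reported, was 935 without the filter, 572 with the GC offset, 414 with the replicate block and GC offset and 200 with the replicate block, and 121 (without SCR (-dox) replicate 1) to 560 (without SCR (-dox) replicate 2) with a library left out. It also moved by over 1.5 times without SCR (+dox) replicate 2 (423) or replicate 4 (428). Same-numbered libraries deviated together with correlations of 0.05, -0.03, -0.29 and -0.25, so the numbers pair nothing. Pairs of unlike number ran from -0.44 (SCR (+dox) replicate 2 with SCR (-dox) replicate 4) to 0.46 (SCR (+dox) replicate 4 with SCR (-dox) replicate 2). A pairing by other numbers was not tested. The interferon median ran from -0.034 to 0.051 with a library left out. List medians changed sign in 15 of 304 alternatives, and named genes in 69 of 2411. With a library left out, calls in the knockdown line, 552 as reported, ran from 235 to 504, lowest without NAA40-KD (+dox) replicate 4, and were 285, 292 and 246 without replicates 1 to 3 of that group. Interaction calls, 646 as reported, ran from 477 to 733 with a library left out. DESeq2 called 681 in the knockdown line and 758 for the interaction. Depth limits genes under 2 CPM.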

Other observations

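Some of the genes with the widest spread within groups at 10 CPM or more are given here as values. *FOSB*, an immediate early gene, was at 74.9, 263, 133 and 143 CPM in SCR (+dox) and at 78.5, 197, 149 and 69.6 CPM in SCR (-dox). *KLF2*, another early-response transcription factor, was at 27.1, 37.8, 58.5 and 65.0 CPM against 28.9, 57.0, 24.4 and 43.7 CPM. *FOSB* and *KLF2* thus ranked the libraries differently.

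Among these genes *MALAT1*, a nuclear long noncoding RNA, was at 760, 1023, 1209 and 563 CPM in SCR (+dox) and at 755, 536, 1223 and 349 CPM in SCR (-dox), and *NEAT1*, the scaffold of paraspeckles, at 267, 193, 151 and 171 CPM against 249, 132, 255 and 94.1 CPM. SCR (-dox) replicate 4 was the lowest library for both, as it was for the mitochondrial share. *RAPH1*, an actin regulator, and *ARHGAP8*, a GTPase-activating protein that overlaps a readthrough gene, were lowest in SCR (+dox) replicate 3, at 4.04 and 4.41 CPM beside 11.2 to 15.3 and 5.84 to 15.9 CPM in the other libraries.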
